A study of Mus musculus with 2 samples.

Results

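The Ly49 receptor family was followed as 6 genes, Klra1, Klra3, Klra4, Klra7, Klra8 and Klra9, found by symbol among the 31253 genes counted in the series. Ly49 receptors are C-type lectin-like proteins of mouse natural killer (NK) cells and some T cells, and most bind class I major histocompatibility molecules. The inhibitory kind carries a tyrosine motif in its cytoplasmic tail that recruits phosphatases such as SHP-1 (Ptpn6) and holds the cell back, whereas the activating kind lacks that motif and signals through the adaptor DAP12 (Tyrobp). Each NK cell expresses its own subset of the family, so that NK cells of one animal form a repertoire. Klra1 (Ly49A), Klra3 (Ly49C), Klra7 (Ly49G) and Klra9 (Ly49I) are inhibitory; Klra4 (Ly49D) and Klra8 (Ly49H) are activating.

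Living immune cells, CD45.2+ and CD45.1-, were sorted from mouse glioma and sequenced as single cells with BD Rhapsody, which tags each captured molecule with a unique molecular identifier (UMI). There were 2 libraries, 1 from tumors given PBS and 1 from tumors given EM, whose title adds 72 h; the labels do not spell EM out and give no strain, age, tumor line or number of animals. Because each group is a single library, no test between treatments was possible, and every interval below is a 95% interval for counting error only. Intervals of UMI sums take the UMIs as independent. They are too narrow, because a cell can hold many UMIs of a gene. The PBS library held 8333 barcodes and 45043934 UMIs and the EM library 8039 barcodes and 19385631 UMIs; 7756 and 7967 cells were kept, with median depths of 4303 and 2016 UMIs. Sex-linked transcripts set the libraries apart as well. In the NK gate, Xist was at 1.21 CPM (a gene's UMIs scaled to a common total of UMIs per gate) in PBS and 351 in EM, and the Y-linked Ddx3y at 195 and 6.50, so that treatment and the sex of the animals cannot be told apart. The 2 libraries shared 66 barcode strings.

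Cells were gated on marker UMIs. The NK gate asked for at least 2 UMIs of Ncr1, Klrb1c and Klre1 together, at most 1 UMI of the Cd3 genes and at most 2 UMIs of myeloid or B-cell genes. It held 232 PBS and 523 EM cells, 2.99% and 6.56% of the kept cells. The CD8 T gate (Cd3 and Cd8 genes, no Cd4, no Trdc) held 2929 and 2334 cells, and the gamma delta T gate (Cd3 genes with Trdc and the Tcrg constant genes) 25 and 91. T cells with NK receptor transcripts outside both of those gates formed a Klrb1c T gate of 68 and 86 cells. Markers that the gates did not use fitted the NK label: Gzma was at 8200 and 6813 CPM in the NK gate, Tyrobp at 863 and 1123, and Trac, the T-cell receptor alpha constant gene, at 45.8 and 49.1. The CD8 T gate had Trac at 1352 and 1306 CPM. The gamma delta T gates were unlike each other. Cd163l1 and Il17a, known from IL-17-producing gamma delta T cells, were at 121 and 72.8 CPM in PBS and 743 and 371 in EM. Gzma was at 5666 CPM in PBS and 243 in EM. Cd8a was at 728 and 1074 CPM in PBS cells with and without a UMI of Ncr1, Klrb1c or Klre1. In EM it was at 12.1 and 14.7 CPM. Comparisons of the 2 libraries in this gate thus set unlike cells side by side.

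The 6 genes lie on the minus strand of chromosome 6 (mm10, equal to GRCm38) within 343 kb, in the order Klra4 (chr6:130043731-130067271), Klra8 (chr6:130115226-130129898), Klra9 (chr6:130178675-130193112), Klra7 (chr6:130218605-130233322), Klra3 (chr6:130323289-130337574) and Klra1 (chr6:130363917-130386874). The start of each coding sequence shows the difference between the inhibitory and the activating kind. Below are the first 54 coding bases from the GENCODE transcripts, with codon 8 in capitals; in the inhibitory genes it is a codon for tyrosine.
Klra1: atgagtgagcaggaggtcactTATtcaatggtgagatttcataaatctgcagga
Klra3: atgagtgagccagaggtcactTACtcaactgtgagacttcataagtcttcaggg
Klra7: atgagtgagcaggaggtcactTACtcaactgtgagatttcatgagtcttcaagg
Klra9: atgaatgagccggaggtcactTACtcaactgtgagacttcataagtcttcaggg
Klra4: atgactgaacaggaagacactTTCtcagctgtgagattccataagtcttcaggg
Klra8: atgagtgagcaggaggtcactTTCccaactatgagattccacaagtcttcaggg
Counted from the A of the start codon, both activating genes carry A23T against all 4 inhibitory genes, and TTC is not a tyrosine codon. Only A23T and T39C separate the activating from the inhibitory genes within these bases. Klra3 and Klra9 have the same bases at 52 of the 54 positions and at 95.9% of their 798 coding positions. Reads of such close relatives cannot all be told apart: of the 90-base windows in the last 600 bases of the transcript, 12.5% of those of Klra9, 6.85% of Klra3, 8.22% of Klra7 and 3.33% of Klra8 occur unchanged in another Klra transcript, and none of those of Klra1 and Klra4. Of the 50-base windows, 48.5% of Klra9, 38.5% of Klra3, 27.2% of Klra7 and 20.3% of Klra8 do, and 9.26% of both Klra1 and Klra4. The read length is not given in the sources at hand. How the upstream counting treated such reads is not given in the sources used here, so single-gene values carry this uncertainty, least those of Klra1 and Klra4, and the sum is given beside them.

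In the NK gate all 6 genes were detected in both libraries. Any member was found in 190 of 232 PBS cells (81.9%, exact binomial interval 76.3 to 86.6) and in 408 of 523 EM cells (78.01%, 74.2 to 81.5). The family summed to 2671 CPM in PBS against 2192 in EM, which as log2 of EM over PBS is -0.29 (-0.36 to -0.21). Without the limit on markers of other lineages the ratio was -0.13, and without the 5% of cells with the most UMIs it was -0.14. After each cell was thinned to 1000 UMIs to remove the difference in depth, 165 of 226 PBS cells (73.0%) and 350 of 515 EM cells (68.0%) were positive. The difference of -5.05 percentage points (-11.8 to 2.21) was within counting error.

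The single receptors differed in direction. Klra8, the receptor known for binding a mouse cytomegalovirus protein, had 657 UMIs in PBS and 651 in EM, or 793 CPM (733 to 856) and 470 CPM (435 to 508). Its log2 ratio was -0.75 (-0.91 to -0.60). Klra9, an inhibitory receptor that binds H-2K molecules, was at 730 CPM (673 to 790) in PBS against 409 CPM (376 to 445) in EM, with a log2 ratio of -0.83 (-1.002 to -0.67). Both were thus lower in the EM library.

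Klra7, an inhibitory receptor for H-2D molecules, was at 339 CPM (301 to 381) in PBS against 515 CPM (478 to 554) in EM, with a log2 ratio of 0.60 (0.40 to 0.81). Klra1, also an inhibitory receptor for H-2D, was the least abundant, with 38 and 133 UMIs, or 45.8 CPM (32.4 to 62.9) and 96.0 CPM (80.4 to 114). Its log2 ratio was 1.07 (0.54 to 1.63). The 38 PBS UMIs came from 16 cells, and the 3 highest cells gave 42.1% of them. Both inhibitory receptors, Klra7 and Klra1, were higher in the EM library. Klra4, the activating receptor Ly49D, was at 545 and 509 CPM, and Klra3, an inhibitory receptor for H-2K, at 218 and 192 CPM. The ratios of both, -0.10 (-0.27 to 0.07) and -0.18 (-0.46 to 0.10), had intervals that include 0.

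Read at 2-fold, 1 of 6 members was called higher in EM (Klra1) and none lower, while 5.28% of the 8256 genes with at least 20 UMIs in the gate were called higher and 8.39% lower. The median log2 ratio was -0.14 over the members and -0.10 over all genes of the gate, but the members went both ways, so this median does not describe them. Where cells needed 1000 UMIs with no more than 10% of them mitochondrial, the ratio of Klra1 was 0.97, just under 2-fold, which leaves no member called.

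**Figure D1:**
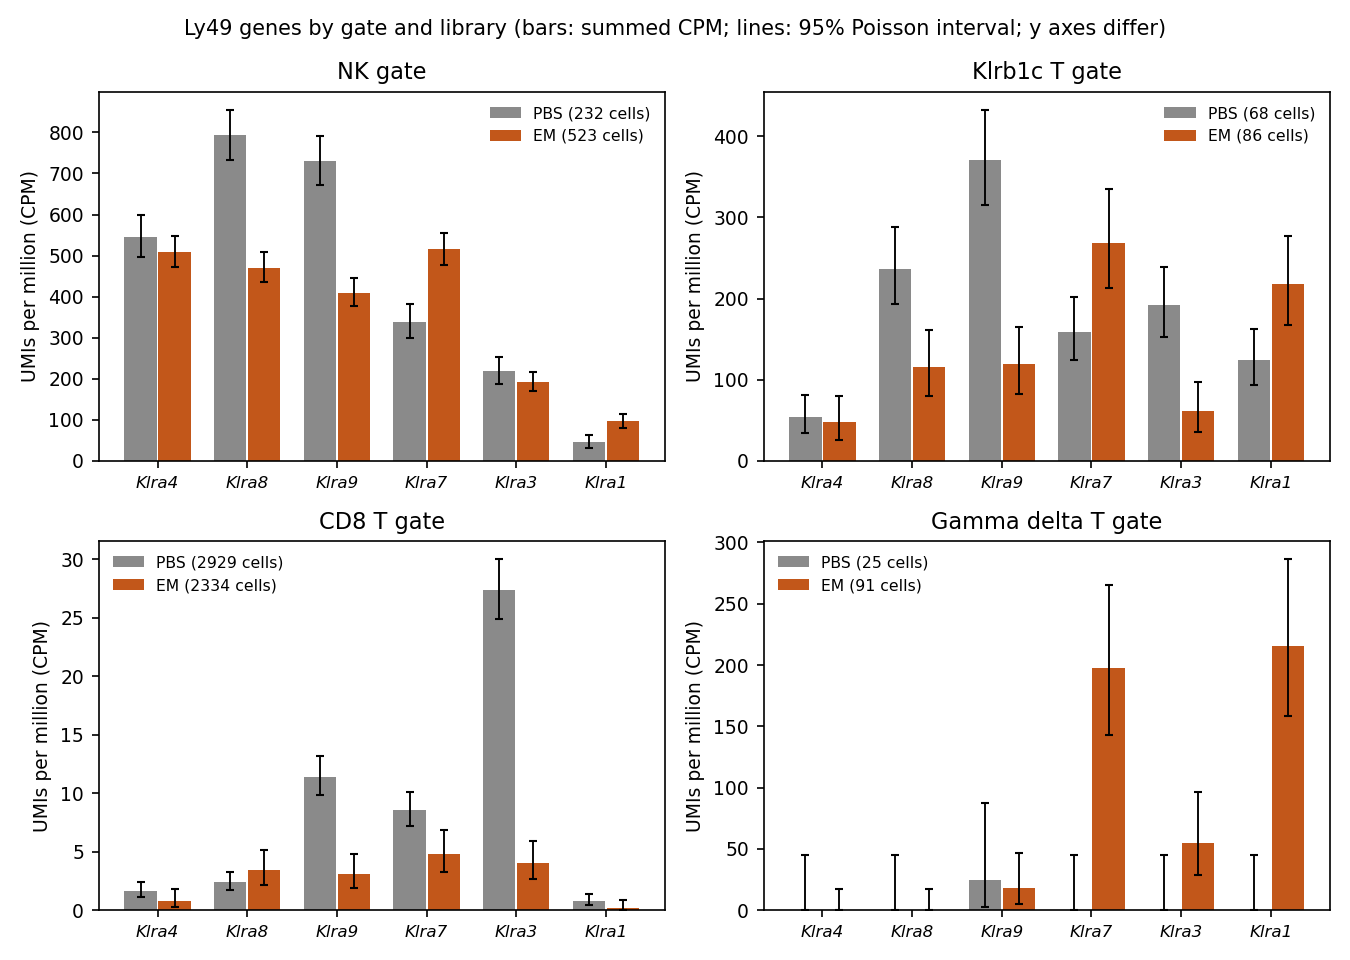
Summed CPM of each Ly49 gene (x axis, in chromosome order) in 4 gates, PBS in grey and EM in orange, with 95% Poisson intervals; the y axes differ. Klra8 and Klra9 stand highest in PBS NK cells at 793 and 730 CPM, Klra3 stands out in the PBS CD8 T gate at 27.4 CPM, and Klra1 and Klra7 in the EM gamma delta T gate at 216 and 197 CPM.

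The shares of positive cells differed in the same direction as the levels. At 1000 UMIs per cell, Klra8 was found in 82 of 226 PBS cells (36.3%) and in 112 of 515 EM cells (21.7%), with a difference of -14.5 points (-21.8 to -7.46). Klra9 was found in 39.4% and 22.5%, a difference of -16.9 points (-24.2 to -9.63). Klra7 was found in 24.3% and 33.0%, which is 8.67 points higher in EM (1.51 to 15.3). For Klra1, with 3.10% and 5.83% positive, the interval of the difference (-0.865 to 5.58 points) includes 0. Klra4 and Klra3 differed by -2.66 points (-9.90 to 4.20) and -0.955 points (-6.74 to 4.13).

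**Figure D2:**
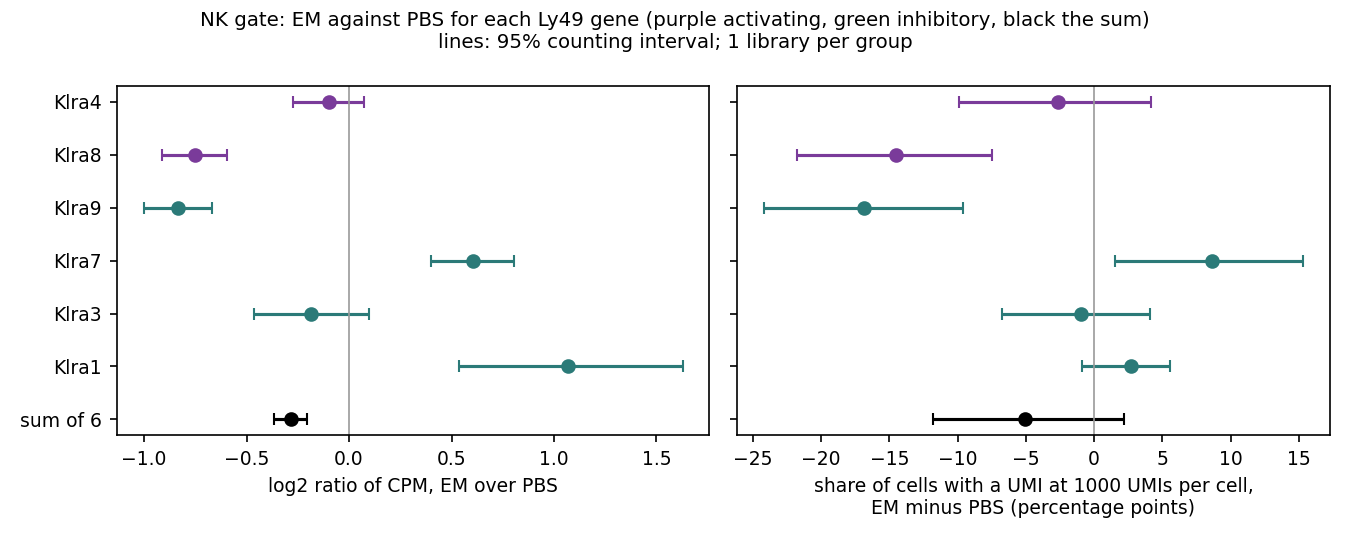
EM against PBS in the NK gate for each Ly49 gene and their sum: log2 ratio of CPM on the left, difference in the share of positive cells at 1000 UMIs on the right, with 95% counting intervals. Klra8 and Klra9 lie left of 0 in both panels and Klra7 right of 0 in both; Klra4 and Klra3 span 0.

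As a share of the family's UMIs, Klra8 and Klra9 together were the larger part of the PBS repertoire, at 29.7% and 27.3%, and made 21.4% and 18.7% in EM. Klra7 made 12.7% of the PBS UMIs (11.3 to 14.2) and 23.5% of the EM UMIs (22.0 to 25.04). The activating genes together made 50.1% in PBS (48.0 to 52.2) and 44.7% in EM (42.9 to 46.5). These intervals take the UMIs as independent and are too narrow. The activating UMIs came from 134 PBS and 243 EM cells, with up to 60 and 29 in a cell. Klra4 made 20.4% and 23.2%. By level, the order in PBS was Klra8, Klra9, Klra4, Klra7, Klra3 and Klra1, in which the intervals of Klra8 and Klra9 overlap. In EM it was Klra7, Klra4, Klra8, Klra9, Klra3 and Klra1, in which each neighbor from Klra7 to Klra9 overlaps the next. Transcripts are captured here by their poly(A) tail and each molecule is counted once, so these levels were not scaled by transcript length.

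**Figure D3:**
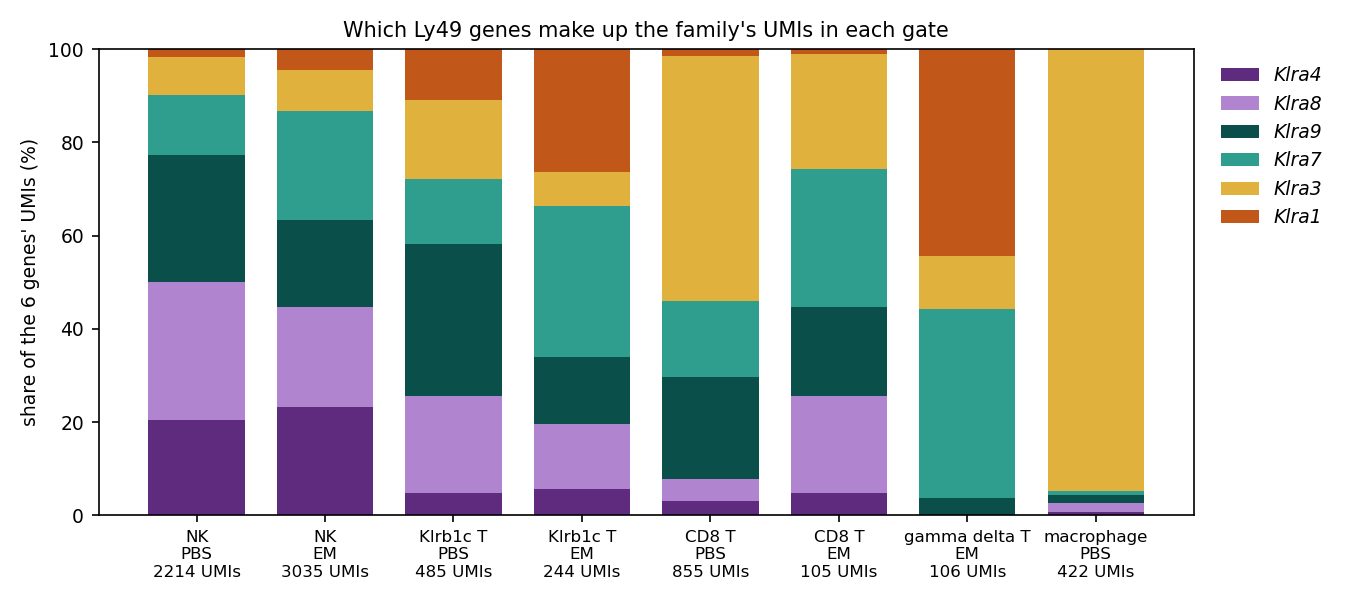
Share of the 6 genes' UMIs (y axis, percent) taken by each Ly49 gene in each gate and library, with the number of UMIs under each bar. NK cells carry all 6 genes; Klra4 and Klra8 make 50.1% of the UMIs in PBS NK cells, 7.72% in PBS CD8 T cells and 0 in EM gamma delta T cells, and Klra3 makes 94.8% in PBS macrophages.

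The Klrb1c T gate, whose 485 PBS and 244 EM UMIs came from 29 of 68 and 36 of 86 cells, held a different mixture. Klra9 was at 370 CPM in PBS and 119 in EM (log2 ratio -1.64, -2.21 to -1.10) and Klra8 at 237 and 115 (-1.04, -1.64 to -0.46). Klra3 was at 192 and 61.1 CPM (-1.65, -2.48 to -0.90). Klra1 and Klra7 were higher in EM, at 124 against 217 CPM and 159 against 268 CPM. Few cells carry these sums: the 3 highest cells gave 83.2% of the Klra8 UMIs in PBS and 94.1% in EM.

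Many NK cells carried transcripts of more than one Ly49 gene. At 1000 UMIs per cell, 110 of 226 PBS cells (48.7%) and 201 of 515 EM cells (39.0%) had at least 2 different members, with means of 1.47 and 1.23 members per cell. With all UMIs used the shares were 65.1% and 51.8%. The largest number found in one cell was 5, in 4 PBS and 3 EM cells, and no cell had all 6. At 1000 UMIs, 36.7% of PBS and 29.7% of EM cells had both an activating and an inhibitory member, 11.9% and 9.71% an activating member alone, 24.3% and 28.5% an inhibitory member alone, and 27.0% and 32.0% neither. Detection of 1 UMI is incomplete at this depth, so cells without a UMI are not shown to lack the receptor.

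The activating pair was found together more often than the product of its shares. At 1000 UMIs, 39 of 67 Klra4-positive PBS cells also had Klra8 (58.2%, 45.5 to 70.2), against 27.0% (20.3 to 34.7) of the Klra4-negative cells. In EM the shares were 34.5% (26.7 to 43.1) and 17.0% (13.4 to 21.2). The number of cells with both was 1.60 times the product of the shares in PBS and 1.59 times in EM. Among the 6 genes, Klra4 and Klra8 are next to each other on the chromosome, 48.0 kb apart, with the pseudogene Klra11-ps between them.

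Other pairs had unlike values in the libraries. Klra8 with Klra9, next to each other among the 6 with Klra14-ps between them, stood at 1.49 times the product in PBS and 1.15 in EM, and Klra7 with Klra8 at 1.20 and 1.54. Klra9 paired with Klra4 at 0.99 and 0.83 times, and Klra3 with Klra9, the closest relatives in sequence, at 0.95 and 0.72. Klra1 with Klra9 was lowest of the EM pairs at 0.44, resting on 3 cells, and stood at 0.36 in PBS on 1 cell. Of the 15 pairs, 10 stood above 1 in PBS and 10 in EM. These are counts over cells of 1 library each, and no test was made on them.

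**Figure D4:**
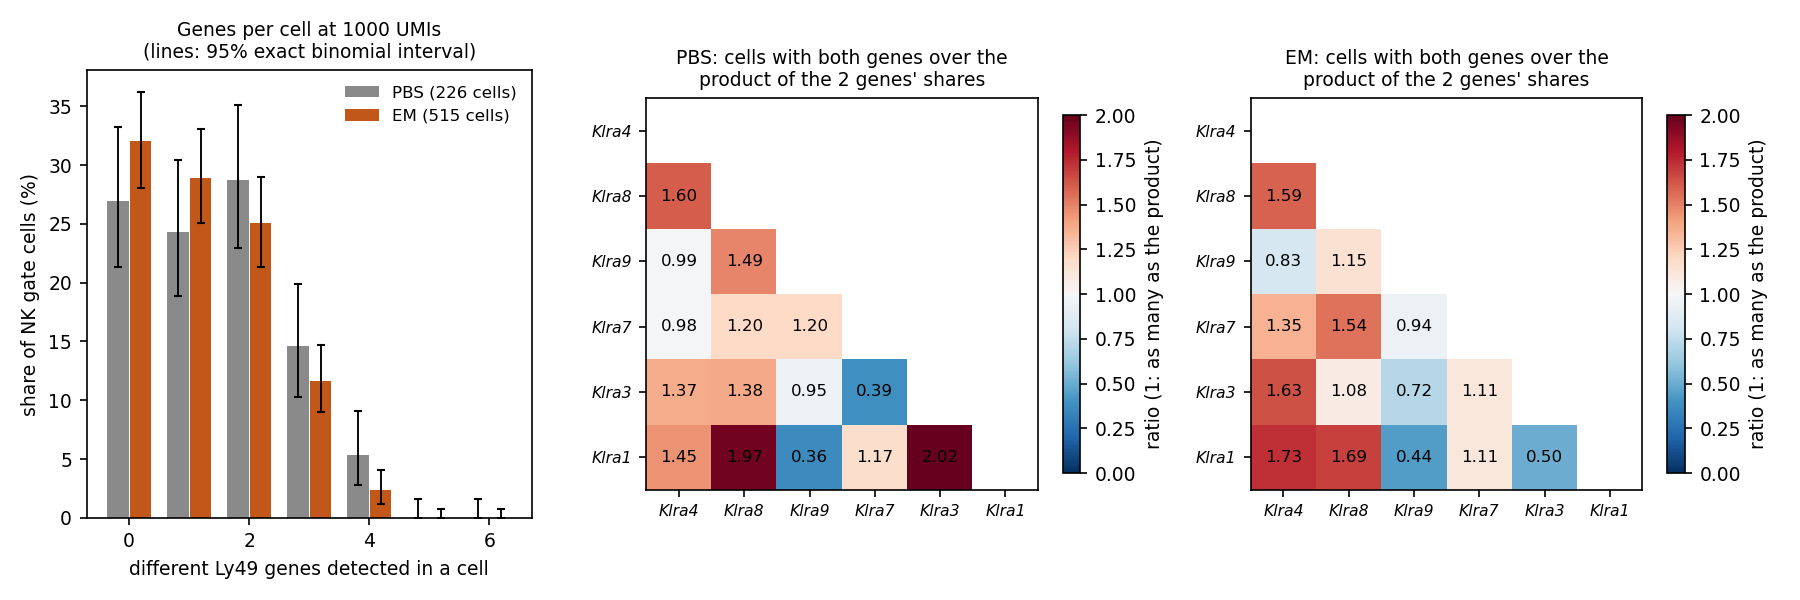
Left, share of NK gate cells (y axis, percent) with 0 to 6 different Ly49 genes at 1000 UMIs per cell, with 95% exact binomial intervals. Right, for each pair and library, cells with both genes over the number given by the product of their shares; Klra4 with Klra8 stands at 1.60 in PBS and 1.59 in EM, and pairs with Klra1 rest on few cells.

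The partners of the Ly49 receptors were read from lists of genes in the same gate, at 2-fold and at least 20 UMIs. Over all 8256 genes of the gate, 5.28% were called higher in EM and 8.39% lower, so the counts below only describe these short lists. Of 12 adaptors and signalling genes, 1 was called higher in EM and 1 lower. Ptpn6 (SHP-1) was at 92.9 CPM in PBS and 193 in EM, and Lyn, a Src-family kinase, at 234 and 109. Tyrobp (DAP12) was at 863 and 1123 CPM. The class I genes H2-K1 (2707 and 5020 CPM), H2-D1 (2638 and 4141) and B2m (3954 and 5892) had a median log2 ratio of 0.65, and none of the 3 passed 2-fold. Of 19 other NK receptors, none was called higher in EM and 2 were called lower, with a median of -0.19. Klre1, which also served in the gate, stood just under the line at 452 and 904 CPM. Of 18 NK maturation genes, 2 were called higher, the transcription factors Eomes (220 and 482 CPM) and Tcf7 (61.5 and 129), and 4 lower, among them Tbx21 (263 and 122), which encodes T-bet, and Ly6c2 (657 and 276). Of 8 genes of type 1 innate lymphoid cells, none was called higher and 3 were called lower. Il7r led these 3, at 174 and 52.0 CPM. Below 2-fold, Itga1 (136 and 209 CPM) and Tnfsf10 (65.1 and 112) were higher in EM, so this list went both ways.

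Of the other Ly49 genes, Klra5 was at 74.8 CPM in PBS and 27.4 in EM NK cells and Klra6 at 12.1 and 18.1. Klra10 was at 4.83 and 4.33 CPM, Klra2 at 1.21 and 1.44, and Klra17 had no UMI there.

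Within each library, NK cells with a member UMI were set against NK cells without one at 1000 UMIs per cell (165 against 61 cells in PBS, 350 against 165 in EM). Il7r, the IL-7 receptor of innate lymphoid and immature cells, was lower in positive cells, at 18.2 against 328 CPM in PBS and 34.3 against 170 in EM. The log2 ratios were -4.17 (-6.57 to -2.42) and -2.31 (-3.42 to -1.29). Klrc1 (NKG2A), an inhibitory receptor for Qa-1, was at 285 against 557 CPM and 217 against 588, with ratios of -0.97 and -1.44, and Cd226, an activating adhesion receptor, had ratios of -2.27 and -0.96. Klri2 was higher in positive cells of both libraries (1.36 and 1.07), as was Gzma (1.50 and 0.36). Of the genes tested, 7.36% were called higher and 4.26% lower in positive cells of PBS, and 4% and 2.83% in EM. Among 4 killing genes tested in PBS, 3 were called higher (Gzma, Gzmb and Prf1), and among 5 in EM none. Trac UMIs were few and lower in the positive cells, at 24.2 against 65.6 CPM in PBS and 31.4 against 103 in EM.

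By the rule for single genes, the 8 genes ranked highest in positive NK cells of both libraries were Klf12, Ccdc88a, Ttc7, Serpinb9b, Grk6, Gstm1, Klri2 and Gab3. Klf12, a transcriptional repressor, had log2 ratios of 2.52 in PBS and 1.82 in EM, from 31 and 30 UMIs in the positive cells. Serpinb9b, a granzyme inhibitor of the serpin family, had 1.58 (0.74 to 2.53) and 1.24 (0.045 to 2.65). The intervals of Ccdc88a, Ttc7, Grk6, Gstm1 and Gab3 include 0 in PBS, and that of Gab3 also in EM (-0.14 to 2.32).

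The CD8 T gate had far lower levels, and there the family was higher in PBS. It gave 855 UMIs (52.2 CPM) in PBS against 105 (16.3 CPM) in EM, with a log2 ratio of -1.68 (-1.99 to -1.38). Positive cells were 218 of 2929 (7.44%) and 47 of 2334 (2.01%). At 1000 UMIs they were 102 of 2920 (3.49%) and 21 of 2307 (0.91%), a difference of -2.58 points (-3.38 to -1.81). CD4 T cells, which should lack these receptors, had 5.17 and 4.15 CPM, with 0.388% and 0.38% positive at 1000 UMIs, at median depths of 3807.5 and 2111 UMIs against 4730 and 2379.5 in the CD8 T gate. The PBS CD8 T share thus lay well above the CD4 T share and the EM share nearer to it. The CD4 T gate limited UMIs of Ncr1, Klrb1c and Klre1, and the CD8 T gate did not. In the macrophage gate 1.59% of PBS and 0.877% of EM cells were positive at 1000 UMIs.

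Klra3 made 52.5% of the family's UMIs in PBS CD8 T cells and 24.8% in EM. It had 449 UMIs in 107 PBS cells and 26 UMIs in 12 EM cells, or 27.4 CPM (24.9 to 30.0) and 4.03 CPM (2.64 to 5.91). The log2 ratio was -2.76 (-3.39 to -2.19). Of the PBS cells with Klra3, 22 held a single UMI and 17 held 8 or more, up to 20 in a cell.

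Klra9 and Klra7, also inhibitory, followed at 11.4 against 3.10 CPM (-1.88, -2.62 to -1.21) and 8.54 against 4.81 CPM (-0.83, -1.44 to -0.26). The activating genes together were at 4.03 and 4.19 CPM (0.06, -0.65 to 0.72), an interval that includes 0. That ratio rests on few cells: the 3 highest gave 71.2% of the 66 activating UMIs in PBS and 44.4% of 27 in EM. The inhibitory genes together were at 48.1 and 12.1 CPM (-1.99, -2.35 to -1.65). Klra1 had 13 UMIs in PBS and 1 in EM (-2.35, -7.76 to 0.38). At 2-fold, 3 of the 5 members with enough UMIs (Klra3, Klra4 and Klra9) were called lower in EM and none higher, beside 13% of 12154 genes called lower and 4.04% higher. The interval of Klra4 (-2.82 to 0.31) includes 0, and it reached 20 UMIs through PBS alone, so this count is only a description. The median over all genes was -0.16.

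Some of these cells also held UMIs of the genes used for the NK gate, mostly of Klre1. In the CD8 T gate Klre1 had 2110 UMIs in PBS and 1607 in EM, Klrb1c 102 and 61, and Ncr1 5 and 14. The PBS cells with such a UMI had Ncr1 at 0.695 CPM, against 331 in the PBS NK gate. Their median depth was 5579 UMIs, against 4397 in the PBS CD8 T cells without one. In PBS, the 1107 CD8 T cells with a UMI of Ncr1, Klrb1c or Klre1 gave 606 of the 855 family UMIs (84.3 CPM), and the 1822 without one gave 249 (27.1 CPM), of which 171 were Klra3. In EM the values were 26.7 and 9.17 CPM. Among the cells without an NK UMI the log2 ratio was -1.56, and the share difference at 1000 UMIs was -1.76 points. Klra3 was at 24.7 CPM in PBS macrophages and summed macrophage markers were at 67.3 CPM in the PBS and 48.3 in the EM CD8 T gate; their part in the result was not tested.

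Positive PBS CD8 T cells were higher than negative ones in Fcer1g (137 against 27.0 CPM), the Fc receptor gamma chain, in Xcl1 (98.0 against 23.4), a chemokine, and in Ikzf2 (225 against 101), which encodes Helios. Their log2 ratios were 2.35 (1.41 to 3.18), 2.07 (0.94 to 3.03) and 1.16 (0.48 to 1.77). Cd8a was at 1892 and 1886 CPM. Of the genes compared in PBS, 7.39% were called higher and 8.33% lower. In EM only 21 cells were positive, and 27.8% of genes were called higher and 6.28% lower. Genes needed a UMI in both kinds of cell. With so few positive cells, weakly expressed genes that met this limit were bound to be called higher. The EM shares therefore do not describe the positive cells. Gzma was higher in positive PBS cells (1.19) and lower in positive EM cells (-2.24). Of the 19 genes listed for Ly49-bearing CD8 T cells, 4 were called higher in EM over the whole gate and none lower: Xcl1 (32.1 and 574 CPM), Ly6c2, Fcer1g and Eomes. The list's median log2 ratio was 0.55. Over all 12154 genes of the gate, 4.04% were called higher in EM and 13% lower, with a median of -0.16.

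The gamma delta T gate was small, and its family UMIs lay almost wholly in EM. PBS had 2 UMIs, both Klra9 in 1 of 25 cells (24.3 CPM, 2.94 to 87.7). EM had 106 UMIs in 24 of 91 cells (26.4%, 17.7 to 36.7). Klra1 gave 47 of them (216 CPM, 158 to 287) and Klra7 43 (197 CPM), while Klra3 gave 12 and Klra9 4. Klra1 and Klra7 had 0 UMIs in PBS, and the exact lower limit of the ratio was 4.63-fold for Klra1 and 4.22-fold for Klra7. These limits take the UMIs as independent and are too high, because the UMIs came from 15 and 10 EM cells. At 1000 UMIs, the shares of positive cells differed by 12.1 points (-2.21 to 20.4) for Klra1 and 7.69 points (-6.19 to 15.04) for Klra7. Both intervals include 0. Klra1 and Klra7 reached the minimum of 20 UMIs through EM alone, so no count of calls is given here.

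No UMI of Klra4 or Klra8 was found among the 106, which allows the activating genes up to 3.42% of the family's UMIs (exact 95% upper bound). This bound takes the UMIs as independent and is too narrow. The 106 UMIs came from 24 cells, and the 3 highest cells gave 29.2% of them. In EM NK cells the activating genes made 44.7%. Klra1 and Klra7 were found together in 7 cells, of 15 with Klra1 and 10 with Klra7. At 1000 UMIs, 0 of 25 PBS and 20 of 91 EM cells were positive, 22.0 points apart (6.80 to 31.5).

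The positive cells lay mostly within one subset of the EM gamma delta T gate. The 29 cells with an NK UMI gave 104 of the 106 family UMIs, and the 62 without gave 2. In PBS, 7 of 25 cells had an NK UMI and gave 0 family UMIs, and both PBS UMIs came from the 18 cells without one. The 29 EM cells had Trdc, the T-cell receptor delta constant gene, at 1627 CPM, Cd163l1 at 72.8 and no Il17a, against 3568, 1150 and 597 CPM in the 62. EM NK cells had Trdc at 88.1 CPM. Without cells holding an NK UMI, the log2 ratio was -1.30, from 2 UMIs in each library. At 1000 UMIs, positive cells were higher in Xcl1 (2.51, 1.72 to 3.33), Cd160 (2.53), Fcer1g (2.26) and Cd7 (2.06), and had no UMI of Cd163l1 or Il17a where negative cells had 62 and 36. Among 771 genes with UMIs in both kinds of cell, 4.54% were called higher and 13.9% lower. Cd163l1 and Il17a, without a UMI in positive cells, are not among them. Doublets were not called, and the part of droplets with both an NK cell and a gamma delta T cell was not tested.

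Klra3 was also found in PBS macrophages. It gave 400 of the 422 family UMIs there (94.8%), in 235 of 1681 cells (14.0%, 24.7 CPM), with 140 of those cells holding 1 UMI and none more than 8. EM macrophages had 6 UMIs in 5 of 896 cells (3.92 CPM), a log2 ratio of -2.65 (-4.11 to -1.52). At 1000 UMIs the shares were 1.41% and 0.219%, -1.19 points apart (-1.90 to -0.0716). The median depths of all macrophages were 9254 and 1015 UMIs. The other members had 0 to 8 UMIs in the PBS macrophages.

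The PBS macrophages with Klra3 were deeper, with a median of 13765 UMIs against 8505.5. Cd3e was at 2.82 CPM against 4.22 in those without Klra3, Ncr1 at 0 against 0.154 and Klrb1c at 2.20 against 3.84. Klra8 and Klra9 went the other way, at 1.88 against 0.154 CPM (6 and 2 UMIs) and 1.26 against 0.230 (4 and 3 UMIs). Klra4 was at 0 against 0.230 CPM. The part of NK cell RNA, doublets or shared reads in the macrophage Klra3 counts was not tested. Klra17, a Ly49-related gene, was at 60.9 against 26.2 CPM, Ccl8, a chemokine, at 662 against 183, and Mrc1, the mannose receptor, at 1583 against 911. Klra2, a Ly49 gene outside the 6, differed less, at 300 against 271 CPM. Its level was above that of Klra3 in all PBS macrophages (24.7 CPM). These genes were chosen after their values were seen.

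**Figure D5:**
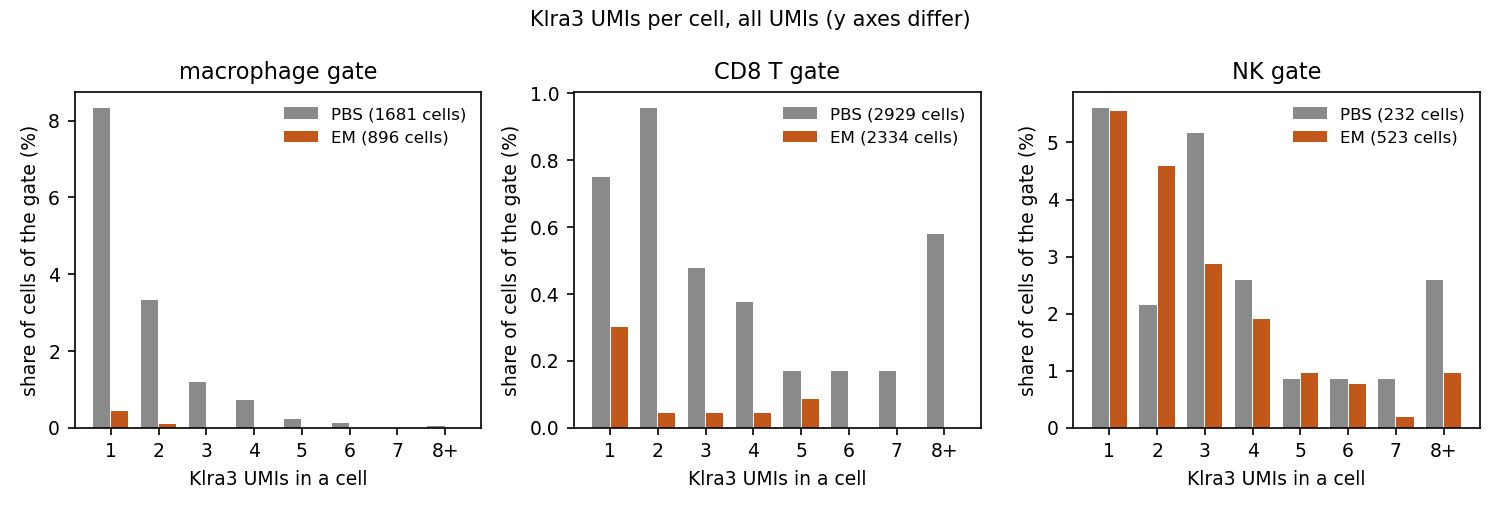
Share of cells by their number of Klra3 UMIs in the macrophage, CD8 T and NK gates of both libraries. In PBS, 140 of 235 macrophages with Klra3 hold 1 UMI, while 17 of 107 CD8 T cells with Klra3 hold 8 or more.

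Across the 14 profiles of 7 gates in 2 libraries, the genes whose log2(CPM + 10) followed the summed Ly49 genes most closely were Klrb1a (Pearson r = 0.98), Klrb1f (0.93), Car2 (0.92), Gzmc (0.88), Cited4 (0.87), Kcnip3 (0.87), Clnk (0.85) and Ugcg (0.85), among 5867 genes. Klrb1a and Klrb1f are lectin-like NK receptors of the same gene complex. The profiles share libraries and depth, so these values only describe them.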

How the data were processed

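Single-cell RNA of 2 libraries was analysed. Raw UMI counts per gene and cell were used as deposited by the authors. The submitters' processing notes name CASAVA 1.8, STARsolo and mm10; neither its settings nor its treatment of multi-mapped reads is stated there. The members and gene lists were chosen with earlier results of these data known.

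Cells with at least 500 UMIs, at least 200 genes and at most 20% mitochondrial UMIs were kept and gated on marker UMIs. Doublets were not called. UMIs were summed per gate and library as CPM with exact Poisson intervals; shares have Clopper-Pearson, differences Newcombe and ratios conditional binomial 95% intervals, all for counting error only. Against a count of 0, the lower limit of the ratio is given. Shares are given at all UMIs and after thinning each cell to 1000 UMIs by a seeded draw. A gene was called at 2-fold and at least 20 UMIs. For calls of EM over PBS, a count of 0 was set to 3 UMIs. For calls of positive over negative cells, genes with 0 UMIs in either kind of cell were left out. The text names the 6 members, the genes of fixed lists, the 8 genes most like the summed members across gates, and the 8 genes ranked highest by the smaller of both libraries' ratios of positive over negative cells (at least 50 UMIs). The calculations (Python 3.11.15, numpy 2.4.6, scipy 1.17.1, pandas 2.3.3) were tested on simulated data. Sequences are GENCODE transcripts of GRCm38, the build of mm10. Processing alternatives are in the closing section.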

Additional observations from a re-analysis of the deposited data

Results flagged for a closer look

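The family's ratio of EM over PBS differed between gates. For the sum of the 6 genes, the log2 ratio of the NK gate minus that of the gamma delta T gate was -4.61, and that of the CD8 T gate minus the gamma delta T gate was -6.00, the family being lower in EM in the former gates and higher in the latter. Klra7 was higher in EM in the NK gate and lower in the CD8 T gate, with a difference between their log2 ratios of 1.43. With 1 library per group these differences were not tested, and the gamma delta T values rest on 2 PBS UMIs.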

How the results depend on the processing

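Over 73 alternatives to the 6 main values, 63 stayed within their counting interval, 9 moved and 1 reversed. The 2-fold call of Klra1 in the NK gate was lost (0.97) when cells needed 1000 UMIs and no more than 10% of them mitochondrial. The NK log2 ratio of -0.29 was -0.13 without the limit on other lineages, -0.14 without the 5% of cells with the most UMIs and -0.18 with a median-of-ratios size factor, and below 0 in all 12 alternatives. The CD8 T ratio of -1.68 was -2.76 with the macrophage CPM subtracted and -2.53 with all cells thinned to 1000 UMIs, and below 0 in all 13. The gamma delta T ratio of 4.32 reversed to -1.30 without cells holding an NK UMI and was above 0 in the other 11. Of the share differences at 1000 UMIs, that of the NK gate ranged from -7.47 to -0.104 points. That of the CD8 T gate (-2.58) was -5.43 with no thinning, -1.21 at 2 or more UMIs per cell and -1.76 without NK UMIs, and that of the gamma delta T gate (22.0) was 3.23 without NK UMIs and 10.99 at 2 or more UMIs per cell, with an interval that includes 0 (-3.21 to 19.1). Leaving out shared barcodes, subtracting the CD4 T level, gating on Trdc alone and leaving out cells with an NK UMI were chosen after seeing the data. Cells kept their draw where an alternative left others out. Subtraction of the macrophage level and thinning gave no gamma delta T ratio, because the PBS count was then at or below 0. No paired analysis was possible because each group is 1 library. The number of cells limits the gamma delta T gate (25 in PBS), and depth the EM macrophages (440 of 896 under 1000 UMIs).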

Other observations

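Among the other Ly49 genes of the CD8 T gate, Klra5 was higher in EM, at 7.56 CPM in PBS and 21.3 in EM, opposite to its NK gate values of 74.8 and 27.4. Klra6 was at 3.36 and 3.57 CPM in CD8 T cells. These are single-library values with no test.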
